A study of Arabidopsis thaliana with 6 samples.

Results

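The chloroplast genome of Arabidopsis thaliana was followed through all rows of the deposited count and RPKM table whose identifier begins with ATC, which were 133 of 34262 features. The counts came from poly(A)-selected RNA of whole seedlings, collected at ZT12 (12 h after dawn) after growth on MS medium with sucrose in 16 h of light and 8 h of dark. The genotypes were importin123, a triple mutant in importin α genes, whose proteins carry cargo into the nucleus; lhp1-3, a mutant of LHP1, a chromatin protein that reads Polycomb marks; and Col-0, the wild type whose background both mutants share. Each genotype had 2 libraries, 6 in all, and the labels do not say whether the libraries of a genotype came from separate plantings, so every p-value below is set against the scatter of the deposited libraries alone, part or all of which may be technical.

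Chloroplasts keep a small circular genome that encodes ribosomal and transfer RNAs, part of the plastid ribosome, subunits of the photosynthetic complexes and the core of a plastid RNA polymerase. Its genes are read by that polymerase, which needs sigma factors made in the nucleus, and by phage-type polymerases that are also nuclear products. The primary transcripts are long and are cut, trimmed and protected by nuclear-encoded proteins. A poly(A) tail marks a chloroplast RNA for decay rather than for export or translation, so poly(A) selection takes chloroplast RNA up only incidentally.

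The table gives identifiers and lengths but no names for these rows. Names were assigned where the length, plus 1, equalled the span of chloroplast genes of a single name in the RefSeq annotation (assembly TAIR10.1), a rule that held for 32508 of the 32524 nuclear features with a RefSeq span. It named 94 of the 133 features, with 77 distinct names. For 32 features genes of several names share the length, and 24 of those fall in 1 functional class; 7 had no RefSeq gene of their length. As a check, 6 of the named features are cited by identifier in notes on their nuclear relatives, and 5 of those gave the same name. The exception was ATCG00430, where the note reads photosystem II protein G and the span gives ndhK. Whether both stand for the same gene was not checked. psbA and psbD have the same length, so ATCG00020 and ATCG00270 could not be told apart by length and carry no name here. The order of the identifiers was not used in naming.

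The features whose place in the set differed most between genotypes include 3 very short genes and a pair of overlapping ones, and their sequences are shown to make clear how little sequence each value rests on. They were read from the RefSeq chloroplast genome (TAIR10.1) on the coding strand, which is the minus strand for psbM, atpB and atpE and the plus strand for rpl32 and psaJ. Capitals mark the start and stop codons, and in the window from the atpB end into atpE they mark the 4 bases that both genes use. psbM encodes a small subunit of photosystem II, rpl32 a protein of the large ribosomal subunit, and psaJ a small subunit of photosystem I.
psbM, 105 bases: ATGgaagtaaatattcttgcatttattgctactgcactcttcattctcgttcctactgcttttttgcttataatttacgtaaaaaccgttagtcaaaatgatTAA
rpl32, 159 bases: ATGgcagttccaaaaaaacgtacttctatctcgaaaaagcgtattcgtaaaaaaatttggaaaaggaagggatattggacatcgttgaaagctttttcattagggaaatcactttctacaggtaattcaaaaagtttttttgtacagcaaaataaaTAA
psaJ, 135 bases: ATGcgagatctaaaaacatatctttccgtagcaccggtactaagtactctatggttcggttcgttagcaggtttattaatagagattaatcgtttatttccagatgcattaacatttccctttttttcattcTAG
End of atpB and start of atpE, 60 bases: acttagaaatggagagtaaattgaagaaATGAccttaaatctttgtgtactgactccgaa
In the overlap the start codon of atpE is followed by an A that completes the stop codon of atpB. Reads that cross the boundary of these genes cannot be assigned to one of them by position alone.

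The chloroplast features took a larger share of the counts in both mutants than in Col-0. They made up 18.7% and 13.7% of all counts in the importin123 libraries, 14.9% and 14.5% in the lhp1-3 libraries, and 2.95% and 3.27% in the Col-0 libraries. All 4 mutant libraries lay above both Col-0 libraries, while importin123 and lhp1-3 overlapped. The mean was 16.2% ± 3.56 in importin123, 14.7% ± 0.276 in lhp1-3 and 3.11% ± 0.229 in Col-0 (SD, n = 2 each), which is 5.21 times Col-0 for importin123 and 4.73 times for lhp1-3. An exact two-sided permutation test gave p = 0.333 for each mutant against Col-0, the smallest that 2 against 2 libraries allow, and p = 1 for importin123 against lhp1-3. Without importin123 replicate 1 the difference of importin123 from lhp1-3 turned to -1.05 percentage points, against 1.47 with it. The libraries held between 70137936 and 95101867 counts and the 133 features between 479 and 1279762 counts each, so the 95% Wilson interval of a share reached no further than 0.00913 percentage points to either side, counting error only. In bulk libraries, more plastids, more RNA per plastid, a greater uptake of plastid RNA and reads from another source cannot be told apart.

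The read floor of the nuclear genes moved with the chloroplast share. The floor is the median RPKM (reads per kb of span, scaled to the library total) of 2304 silent nuclear genes, the lowest 10% by RPKM of the protein-coding ones spanning 1000 bp or more. It was 1.79 and 1.32 RPKM in importin123, 1.53 and 1.45 RPKM in lhp1-3, and 0.207 and 0.249 RPKM in Col-0. The chloroplast genome has a comparable lower level: the median of the 36 named single-copy features of at least 500 bp, called the chloroplast baseline here and defined after the values were seen. It stood at 1100 and 815 RPKM in importin123, 910 and 872 RPKM in lhp1-3, and 101 and 126 RPKM in Col-0. As a ratio to the nuclear floor of the same library the baseline was 615 and 616 in importin123, 596 and 603 in lhp1-3, and 490 and 506 in Col-0. The ratio spans 490 to 616 over libraries whose baselines span 101 to 1100 RPKM. What raised the floor and the baseline was not tested.

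**Figure D1:**
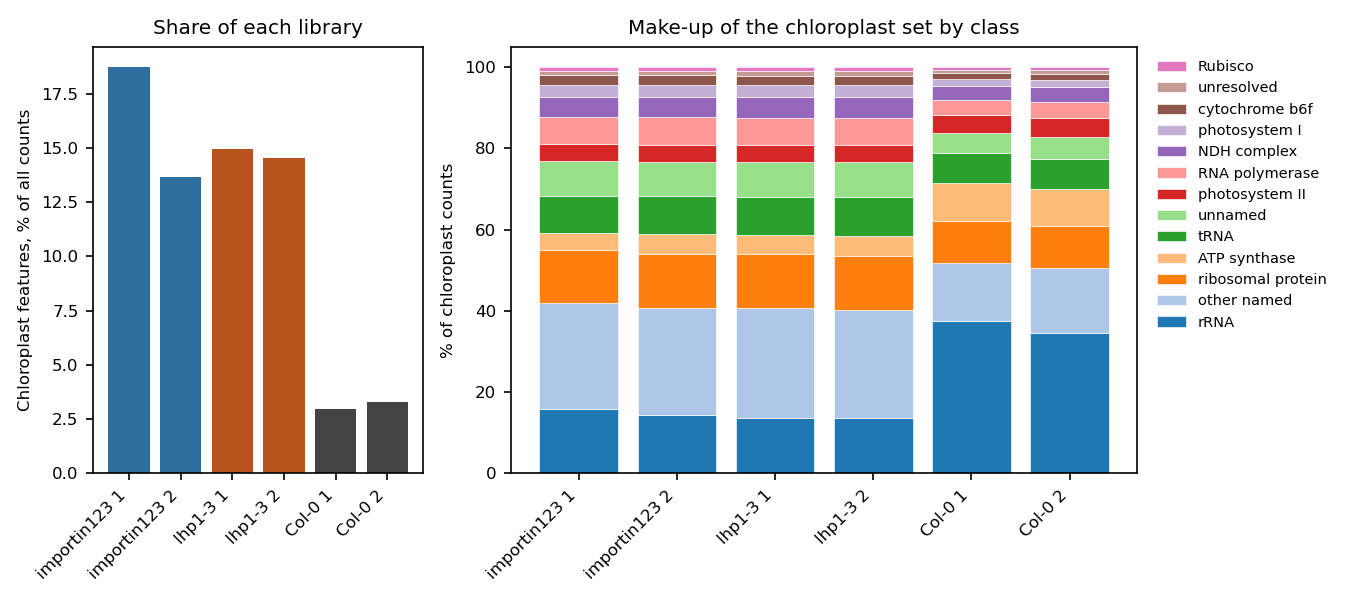
The left panel gives the percentage of all counts that fell on the 133 chloroplast features in each library, and the right panel splits the chloroplast counts of each library by functional class, in percent. The 4 mutant libraries stand between 13.7% and 18.7% on the left, against 2.95% and 3.27% in Col-0, and the rRNA block on the right is smaller in each mutant library than in either Col-0 library.

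Feature by feature, nearly the whole set stood higher in the mutants. With counts scaled by TMM over all features, edgeR's quasi-likelihood test with Benjamini-Hochberg adjustment over the 33906 features tested called 127 chloroplast features higher and 1 lower in importin123 than in Col-0, and 126 higher and 1 lower in lhp1-3 than in Col-0. All 133 features passed the filter on low counts. The same threshold was passed by 75.6% of all features tested in importin123 (42.3% higher, 33.3% lower) and by 75.4% in lhp1-3 (41.7% higher, 33.7% lower). The median log2 fold change of the chloroplast features was 2.22 in importin123 and 2.22 in lhp1-3, beside 0.19 and 0.16 over all features tested. DESeq2 size factors put the median of all features at 0.03 in importin123 and -0.01 in lhp1-3 and that of the chloroplast features at 2.05 and 2.04, and limma on log2(RPKM + 1) put the first at 0.54 and 0.46 and the second at 2.75 and 2.68. DESeq2 called 127 higher and 2 lower in importin123 and 126 higher and 1 lower in lhp1-3, and limma 131 higher and 1 lower in each. Over all features DESeq2 called 36.5% higher and 38.0% lower in importin123, and 35.9% higher and 38.4% lower in lhp1-3, and limma called 58.0% and 53.6% higher. Per library total, 132 features had both libraries above both Col-0 libraries in each mutant, and psbM had both below. Of all 34262 features 67.1% lay above and 20.3% below in this way in importin123, and 63.2% above and 22.2% below in lhp1-3. The features not called in importin123 were atpE, atpB, rpl32 and both copies of rrn23S, and in lhp1-3 they were atpE, atpB and both copies of rrn23S and of rrn16S. Between importin123 and lhp1-3 edgeR called 0 features at the adjusted threshold, where 8.89% of all features passed (2.84% higher, 6.05% lower); 0 had an unadjusted p under 0.05, and DESeq2 also called 0. The 2 comparisons with Col-0 share its libraries, so the likeness of their values is partly built in.

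The make-up of the set also differed. Summed by class, the rRNA and ATP synthase features were a smaller percentage of chloroplast counts in the mutants, and in both classes a few members carried the sum while others went the opposite way. The 8 rRNA features held 15.7% and 14.4% of the chloroplast counts in importin123, 13.7% and 13.5% in lhp1-3, and 37.4% and 34.6% in Col-0. The 5 named ATP synthase features held 4.15% and 4.89% in importin123, 4.74% and 4.94% in lhp1-3, and 9.48% and 9.18% in Col-0. In both sums every mutant library lay below both Col-0 libraries. The lower rRNA sum came from the copies of rrn16S and rrn23S: the other 4 rRNA features held 0.84% ± 0.00198 in importin123 and 0.829% ± 0.0252 in lhp1-3, against 0.653% ± 0.0358 in Col-0. Likewise atpB and atpE made the lower ATP synthase sum, and the other 3 features held 2.1% ± 0.0113 in importin123 and 2.11% ± 0.0112 in lhp1-3, against 1.25% ± 0.0671 in Col-0. The photosystem II class, with 15 features, was lower by a smaller step, at 4.16% ± 0.0602 in importin123 and 4.2% ± 0.0437 in lhp1-3, against 4.65% ± 0.00266 in Col-0. Without psbM its other 14 features were higher, at 4.05% ± 0.0363 in importin123 and 4.07% ± 0.0426 in lhp1-3, against 3.44% ± 0.0264 in Col-0 (SD, n = 2 each throughout). The members were called one by one on the scale of the chloroplast total, in the test described next: of the rRNA features 4 were higher and 4 lower in importin123, and 2 higher and 4 lower in lhp1-3. Of the ATP synthase features 3 were higher and 2 lower in each mutant, and of the photosystem II features 8 were higher and 1 lower in importin123, and 9 higher and 1 lower in lhp1-3.

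The other named classes took up more of the set in the mutants. The 4 subunits of the plastid RNA polymerase held 6.71% ± 0.00933 in importin123 and 6.78% ± 0.0301 in lhp1-3, against 3.75% ± 0.209 in Col-0. The 8 NDH features, for a photosynthetic NAD(P)H dehydrogenase-like complex, held 4.99% ± 0.0668 in importin123 and 5.14% ± 0.109 in lhp1-3, against 3.59% ± 0.201 in Col-0. For the 3 photosystem I features the values were 3.01% ± 0.0323 in importin123 and 2.95% ± 0.0812 in lhp1-3, against 1.87% ± 0.0603 in Col-0. The 5 cytochrome b6f features held 2.27% ± 0.0113 in importin123 and 2.29% ± 0.0062 in lhp1-3, against 1.39% ± 0.0801 in Col-0. The 23 features for ribosomal proteins held 13.1% ± 0.187 in importin123 and 13.3% ± 0.0302 in lhp1-3, against 10.3% ± 0.119 in Col-0, and the 37 tRNA features 9.27% ± 0.0245 and 9.35% ± 0.149, against 7.40% ± 0.144. rbcL, the large subunit of Rubisco and the only member of its class, held 0.991% ± 0.00672 in importin123 and 0.991% ± 0.0125 in lhp1-3, against 0.738% ± 0.0118 in Col-0. The 9 other named features, ycf1 and ycf2 foremost, held 26.4% ± 0.0856 in importin123 and 26.8% ± 0.2 in lhp1-3, against 15.2% ± 0.974 in Col-0 (SD, n = 2 each throughout). The classes add to 100% with the 7 unnamed and 8 unresolved features, so the percentages of the classes are not independent of each other.

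Tested one at a time on the scale of the chloroplast total, 82 features had a higher and 12 a lower share in importin123 than in Col-0, and 91 a higher and 12 a lower share in lhp1-3 than in Col-0 (edgeR's quasi-likelihood test on all features, with the chloroplast rows scaled to their own sum, Benjamini-Hochberg adjusted p under 0.05). Among all features 75.5% passed in importin123 (42.1% higher, 33.4% lower) and 75.3% in lhp1-3 (41.5% higher, 33.7% lower). The rises depended on the scale. With TMM computed over the chloroplast rows, 1 was higher and 27 lower in importin123, and 0 were higher and 24 lower in lhp1-3, while 75.3% and 75.1% of all features passed in either direction. With the sum taken without rRNA and tRNA rows, 4 were higher and 24 lower in importin123, and 1 was higher and 23 lower in lhp1-3, again beside 75.3% and 75.1% of all features. With all libraries the median log2 fold change of the chloroplast shares was 0.38 in importin123 and 0.43 in lhp1-3. Without Col-0 replicate 1 it was 0.34 in importin123 and 0.37 in lhp1-3. Without lhp1-3 replicate 1 it was 0.41 in lhp1-3. With rows of 1 name summed, 121 features remained. Of them 73 were higher and 10 lower in importin123, and 85 higher and 10 lower in lhp1-3. Among all 33894 features then tested, 25593 passed in importin123 and 25527 in lhp1-3. Without this summing, the same 12 features, among them both copies of rrn16S and of rrn23S, were lower in both mutants on the scale of the chloroplast sum. Of these, 11 in importin123 and 10 in lhp1-3 kept their call under every alternative run. Between importin123 and lhp1-3, edgeR called 0 features on this scale, with 0 at an unadjusted p under 0.05 and 0 by DESeq2, where 8.85% of all features passed (2.82% higher, 6.02% lower).

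**Figure D2:**
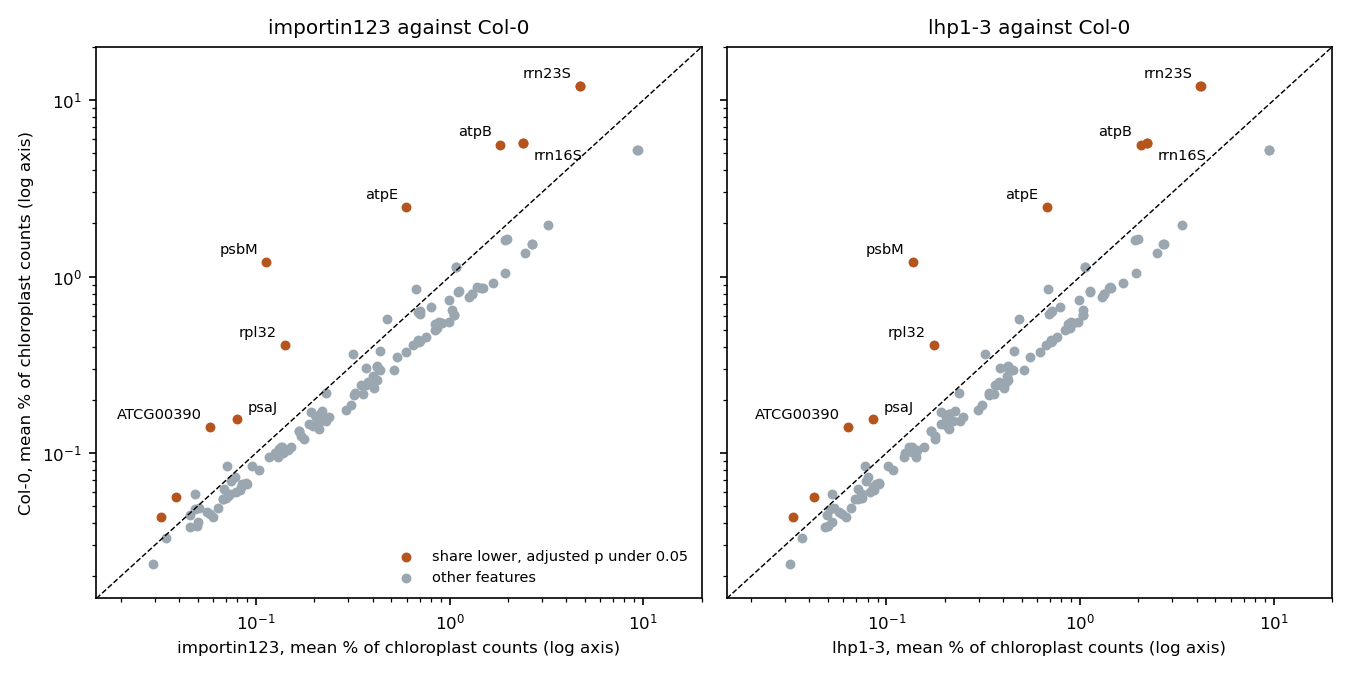
Each point is 1 of the 133 features, with its mean percentage of chloroplast counts in the mutant on the horizontal and in Col-0 on the vertical log axis (n = 2 libraries each); the dashed line marks equal shares and the orange points the 12 features with a lower share in the mutant. Most features lie in a narrow band just right of the line, while psbM, atpE, atpB, both rRNA genes with their overlying second copies, rpl32, psaJ and ATCG00390 stand above it.

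psbM moved furthest. It held 0.0959% and 0.13% of the chloroplast counts in importin123, 0.136% and 0.137% in lhp1-3, and 1.19% and 1.22% in Col-0. The mutant libraries lay far below both Col-0 libraries, and the log2 fold change of the share was -3.41 ± 0.19 in importin123 (SE, adjusted p = 3.17e-09, edgeR) and -3.14 ± 0.19 in lhp1-3 (adjusted p = 9.01e-09). It was also the feature whose level itself fell, to 1727 and 1707 RPKM in importin123 and 1951 and 1921 RPKM in lhp1-3, against 3363 and 3837 RPKM in Col-0. The log2 fold change of that level was -1.60 ± 0.18 in importin123 (adjusted p = 6.56e-07, edgeR) and -1.35 ± 0.17 in lhp1-3 (adjusted p = 5.44e-06). In Col-0 psbM stood 31.8 times above the chloroplast baseline per length, against 1.83 times in importin123 and 2.17 times in lhp1-3. petN, a small subunit gene of the cytochrome b6f complex that lies beside psbM in the genome, was singled out after its values were seen. It held 0.0717% and 0.0723% in importin123, 0.0758% and 0.0719% in lhp1-3, and 0.0533% and 0.0607% in Col-0, a rise of 0.34 ± 0.14 in log2 share in importin123 (adjusted p = 0.0345, edgeR) and 0.37 ± 0.14 in lhp1-3 (adjusted p = 0.0209) on the scale of the chloroplast sum.

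The overlapping pair atpB and atpE, the β and ε subunits of the ATP synthase, fell together in share. atpE held 0.504% and 0.689% in importin123, 0.645% and 0.701% in lhp1-3, and 2.50% and 2.46% in Col-0. For atpB the shares were 1.56% and 2.10% in importin123, 1.98% and 2.14% in lhp1-3, and 5.78% and 5.42% in Col-0. Neither gene's mutant libraries overlapped Col-0. The log2 fold change of the share was -2.06 ± 0.20 for atpE in importin123 (adjusted p = 5.21e-07, edgeR) and -1.88 ± 0.20 in lhp1-3 (adjusted p = 1.91e-06), and for atpB -1.62 ± 0.21 in importin123 (adjusted p = 7.22e-06) and -1.45 ± 0.21 in lhp1-3 (adjusted p = 2.71e-05). Their levels did not pass the test. The log2 fold change of the level was -0.25 ± 0.20 for atpE in importin123 (adjusted p = 0.267, edgeR) and -0.09 ± 0.20 in lhp1-3 (adjusted p = 0.691), and for atpB it was 0.20 ± 0.22 in importin123 (adjusted p = 0.418, edgeR) and 0.35 ± 0.22 in lhp1-3 (adjusted p = 0.159). atpA, the α subunit from another transcription unit, had a higher share by 0.83 ± 0.18 in importin123 (adjusted p = 0.00061, edgeR) and 0.82 ± 0.18 in lhp1-3 (adjusted p = 0.000742), calls lost in both mutants with TMM over the chloroplast rows, at 0.41 in importin123 (adjusted p = 0.0531, edgeR) and 0.36 in lhp1-3 (adjusted p = 0.0823).

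Within the ribosomal RNA operon the long rRNAs parted from their neighbours. One copy of rrn23S, the large-subunit rRNA (ATCG00950), held 4.94% and 4.46% in importin123, 4.19% and 4.19% in lhp1-3, and 12.5% and 11.5% in Col-0. rrn16S, the small-subunit rRNA (ATCG00920), held 2.49% and 2.29% in importin123, 2.24% and 2.18% in lhp1-3, and 5.91% and 5.46% in Col-0. All mutant libraries were below Col-0 in both. The log2 fold change of the share was -1.35 ± 0.21 for rrn23S in importin123 (adjusted p = 3.23e-05, edgeR) and -1.52 ± 0.21 in lhp1-3 (adjusted p = 1.68e-05), and for rrn16S -1.25 ± 0.20 in importin123 (adjusted p = 4.22e-05) and -1.36 ± 0.20 in lhp1-3 (adjusted p = 2.67e-05). The other copies, ATCG01180 and ATCG01210, gave nearly the same values, as their sequences are shared. Over 12 pairs of copies in the inverted repeat the counts of the copies differed by at most 3.05% in a library, apart from trnL at 16.2%, so the copies are no separate evidence. The chloroplast shares and class sums above add both copies. Whether reads in the repeat were counted at both copies was not stated, so these sums may hold the same reads more than once.

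The trnI gene, an intron-containing tRNA gene lying between the 16S and 23S genes, was singled out after its values were seen. One copy (ATCG00930) held 1.06% and 1.04% in importin123, 1.0% and 1.06% in lhp1-3, and 0.606% and 0.606% in Col-0. Its neighbour trnA (ATCG00940) held 1.08% and 1.08% in importin123, 0.997% and 1.13% in lhp1-3, and 1.20% and 1.08% in Col-0, and its groups overlapped. The small rRNAs did not follow the long ones either: rrn4.5S (ATCG00960) held 0.216% and 0.215% in importin123, 0.215% and 0.205% in lhp1-3, and 0.162% and 0.171% in Col-0. rrn5S (ATCG00970) held 0.204% and 0.205% in importin123, 0.209% and 0.199% in lhp1-3, and 0.152% and 0.168% in Col-0. Reads can reach into such short spans from outside, and how those were counted was not stated.

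rpl32 and psaJ, the other short genes printed above, fell in share as well. rpl32 held 0.126% and 0.158% in importin123, 0.198% and 0.153% in lhp1-3, and 0.385% and 0.435% in Col-0, a log2 fold change of -1.53 ± 0.18 in importin123 (adjusted p = 2.8e-06, edgeR) and -1.22 ± 0.18 in lhp1-3 (adjusted p = 2.87e-05). psaJ held 0.0776% and 0.0817% in importin123, 0.0883% and 0.0818% in lhp1-3, and 0.152% and 0.161% in Col-0, a log2 fold change of -0.98 ± 0.14 in importin123 (adjusted p = 1.66e-05, edgeR) and -0.88 ± 0.14 in lhp1-3 (adjusted p = 5.49e-05). For both genes the mutant libraries lay below Col-0. Genes next to them, again singled out after their values were seen, did not fall. ndhF, an NDH subunit gene beside rpl32, had a log2 fold change of its share of 0.71 ± 0.18 in importin123 and 0.76 ± 0.19 in lhp1-3 (adjusted p = 0.00273 and 0.00165, edgeR). Both of these calls were lost with TMM over the chloroplast rows. rpl33, which lies beside psaJ, had 0.18 ± 0.15 in importin123 and 0.29 ± 0.15 in lhp1-3, which passed in neither (adjusted p = 0.259 and 0.0849, edgeR).

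The last of the falls were 3 features of tRNA length. ATCG00390, whose length is shared by trnE, trnF, trnH, trnM and trnT genes, held 0.0541% and 0.062% in importin123, 0.0671% and 0.0593% in lhp1-3, and 0.136% and 0.144% in Col-0. Its log2 fold change was -1.27 ± 0.14 in importin123 (adjusted p = 1.58e-06, edgeR) and -1.15 ± 0.14 in lhp1-3 (adjusted p = 6.21e-06). A serine tRNA gene, trnS (ATCG00090), fell by 0.55 on the log2 scale in importin123 (adjusted p = 0.00157, edgeR) and by 0.41 in lhp1-3 (adjusted p = 0.0109), and ATCG00010, with the same length as ATCG00390, fell by 0.42 in importin123 (adjusted p = 0.00499) and by 0.39 in lhp1-3 (adjusted p = 0.00798). The trnS call was lost without Col-0 replicate 2 in importin123 (log2 fold change -0.40), and in lhp1-3 with the floor subtracted (-0.42) or without Col-0 replicate 2 (-0.26), lhp1-3 replicate 1 (-0.45) or lhp1-3 replicate 2 (-0.38). The ATCG00010 call in lhp1-3 was lost without Col-0 replicate 2 (-0.38) or lhp1-3 replicate 1 (-0.36).

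Among the rises in share, 3 subunits of the plastid-encoded RNA polymerase had the largest log2 fold changes in each mutant, and all 4 subunits were called higher on the scale of the chloroplast sum. rpoB, the β subunit, held 1.93% and 1.95% in importin123, 1.93% and 1.97% in lhp1-3, and 1.02% and 1.08% in Col-0. The mutant libraries were all above Col-0, by 0.89 ± 0.19 on the log2 scale in importin123 (adjusted p = 0.000601, edgeR) and 0.89 ± 0.19 in lhp1-3 (adjusted p = 0.000607). rpoC1 and rpoC2, the β′ and β″ subunits, rose by 0.85 and 0.85 in importin123 and by 0.86 and 0.86 in lhp1-3, and rpoA, the α subunit, by 0.66 in importin123 and 0.71 in lhp1-3. ycf2, a very long gene of the inverted repeat whose product takes part in protein import, held 9.36% and 9.33% per copy (ATCG00860) in importin123, 9.45% and 9.43% in lhp1-3, and 5.0% and 5.43% in Col-0. With TMM over the chloroplast rows the call was lost for rpoC1, rpoC2 and ycf2 in both mutants and for rpoB in lhp1-3; rpoB in importin123 was the 1 rise that stayed, at 0.46 (adjusted p = 0.0409, edgeR).

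Outside the polymerase, ycf1 (ATCG01130), a very long reading frame and like ycf2 linked to protein import, held 3.19% and 3.29% in importin123, 3.45% and 3.30% in lhp1-3, and 1.84% and 2.10% in Col-0. ATCG01250, which no RefSeq span names, held 2.67% and 2.65% in importin123, 2.69% and 2.70% in lhp1-3, and 1.48% and 1.57% in Col-0. psaA, a core subunit of photosystem I, held 1.5% and 1.48% in importin123, 1.42% and 1.48% in lhp1-3, and 0.844% and 0.871% in Col-0. In all 3 the mutant libraries lay above Col-0, as did those of 109 of the 133 features in share in each mutant. None of the 3 was called higher with TMM over the chloroplast rows in either mutant. A smaller separation was seen in rps7, a small-subunit ribosomal protein gene of the repeat (ATCG00900), at 0.691% and 0.72% in importin123, 0.712% and 0.725% in lhp1-3, and 0.663% and 0.615% in Col-0. Its difference passed in neither mutant (adjusted p = 0.464 in importin123 and 0.386 in lhp1-3, edgeR).

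The features called lower with TMM over the chloroplast rows but not on the chloroplast sum were mostly tRNA, NDH and photosystem II genes. ndhK and ndhJ, subunits of the NDH complex encoded side by side, had log2 fold changes of -0.71 and -0.64 in importin123 (adjusted p = 0.00174 and 0.00275, edgeR) and -0.70 and -0.63 in lhp1-3 (adjusted p = 0.00196 and 0.00288). psbI, a small photosystem II subunit, had -0.67 in importin123 and -0.58 in lhp1-3, and ATCG00020, whose length fits psbA and psbD, -0.76 in importin123 and -0.77 in lhp1-3. Of all features lower with this scaling, 12 of 27 in importin123 and 10 of 24 in lhp1-3 were of the tRNA class.

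Seen per length, the mutant libraries covered the chloroplast genome more evenly. The SD of log2 RPKM among the 36 named single-copy features of at least 500 bp was 0.18 and 0.232 in importin123, 0.223 and 0.237 in lhp1-3, and 0.639 and 0.599 in Col-0. The highest of them was atpB in every library, at 1.78 and 2.35 times the baseline in importin123, 2.17 and 2.38 times in lhp1-3, and 11.2 and 9.42 times in Col-0. Outside atpB the separation was smaller: ndhK stood at 1.18 times the baseline in importin123 and 1.19 times in lhp1-3, against 2.34 times in Col-0, and rbcL at 1.16 times in importin123 and 1.14 times in lhp1-3, against 1.41 times in Col-0 (means, n = 2 each). Over all 133 features the 5 with most counts took 31.8% and 30.9% in importin123, 30.7% and 30.5% in lhp1-3, and 42.6% and 39.4% in Col-0. The 15 named features of at least 500 bp in the inverted repeat, which is present as 2 copies, had a median RPKM 2.31 and 2.27 times the single-copy baseline in importin123, 2.25 and 2.28 times in lhp1-3, and 3.12 and 2.75 times in Col-0. In each of these measures all 4 mutant libraries lay on the same side of both Col-0 libraries. The measures were chosen after the values were seen and carry no test.

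**Figure D3:**
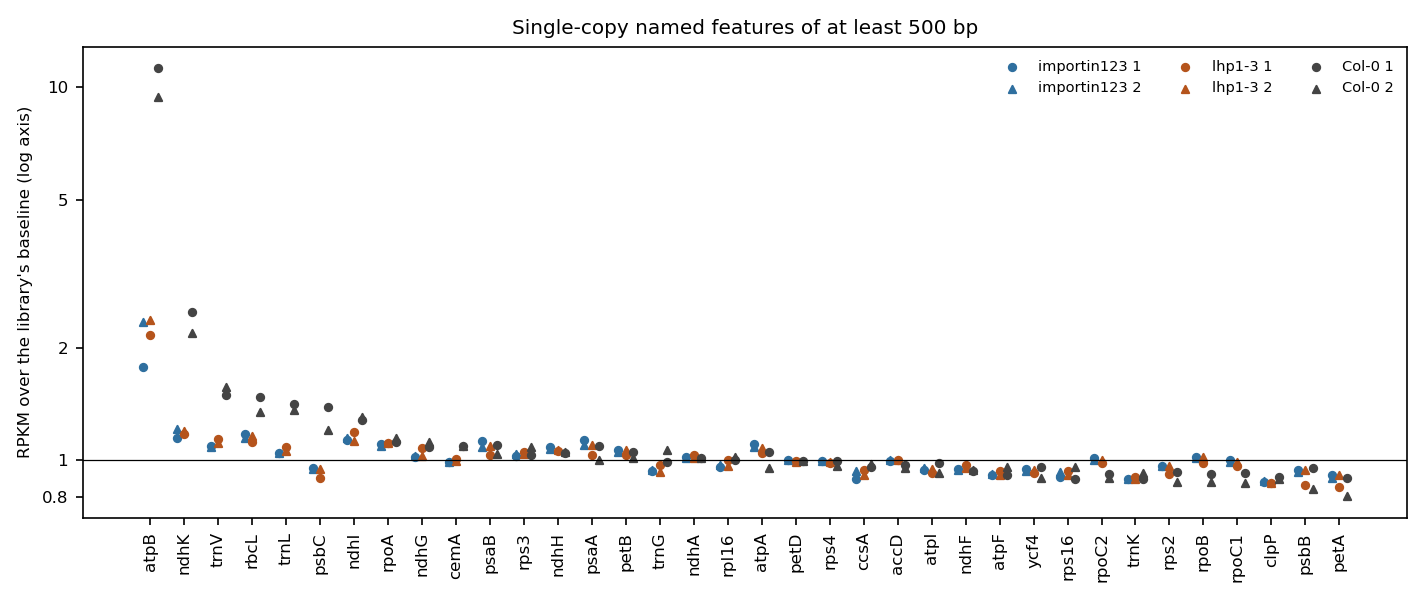
RPKM of each named single-copy feature of at least 500 bp, divided by the library's own chloroplast baseline, on a log axis; circles are replicate 1 and triangles replicate 2 of each genotype, and the line marks the baseline itself. atpB stands at 11.2 and 9.42 times the baseline in Col-0 and between 1.78 and 2.38 times in the mutants, and at the right end of the plot the genotypes lie close together around 1.

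Taking the baseline away from each feature's RPKM in the same library (times 2 for features in the inverted repeat) leaves the level above the chloroplast baseline, a description added after the values were seen. For psbM this was 627 and 892 RPKM in importin123, 1040 and 1049 RPKM in lhp1-3, and 3261 and 3711 RPKM in Col-0, so its mutant libraries stayed below Col-0. psaJ stood at -15.5 and 18.6 RPKM in importin123, 73.2 and 15.7 RPKM in lhp1-3, and 234 and 266 RPKM in Col-0, also with no overlap. atpB, by contrast, had 854 and 1102 RPKM in importin123, 1062 and 1205 RPKM in lhp1-3, and 1038 and 1061 RPKM in Col-0. Here importin123 fell on both sides of Col-0 and lhp1-3 lay above both Col-0 libraries.

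atpE had 1270 and 1554 RPKM above the baseline in importin123, 1510 and 1688 RPKM in lhp1-3, and 1750 and 1900 RPKM in Col-0. rrn23S had 1092 and 543 RPKM in importin123, 406 and 423 RPKM in lhp1-3, and 1108 and 1090 RPKM in Col-0, and rrn16S 931 and 475 RPKM in importin123, 424 and 382 RPKM in lhp1-3, and 968 and 948 RPKM in Col-0. Both mutants were below Col-0 in atpE and rrn16S, and lhp1-3 was below it in rrn23S, where importin123 replicate 1 lay between the Col-0 libraries. For rpl32 the values were 391 and 551 RPKM in importin123, 965 and 533 RPKM in lhp1-3, and 618 and 775 RPKM in Col-0, and lhp1-3 overlapped Col-0. The baseline is close to the size of what is left for several of these genes in the mutants, so small errors in it move these values.

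**Figure D4:**
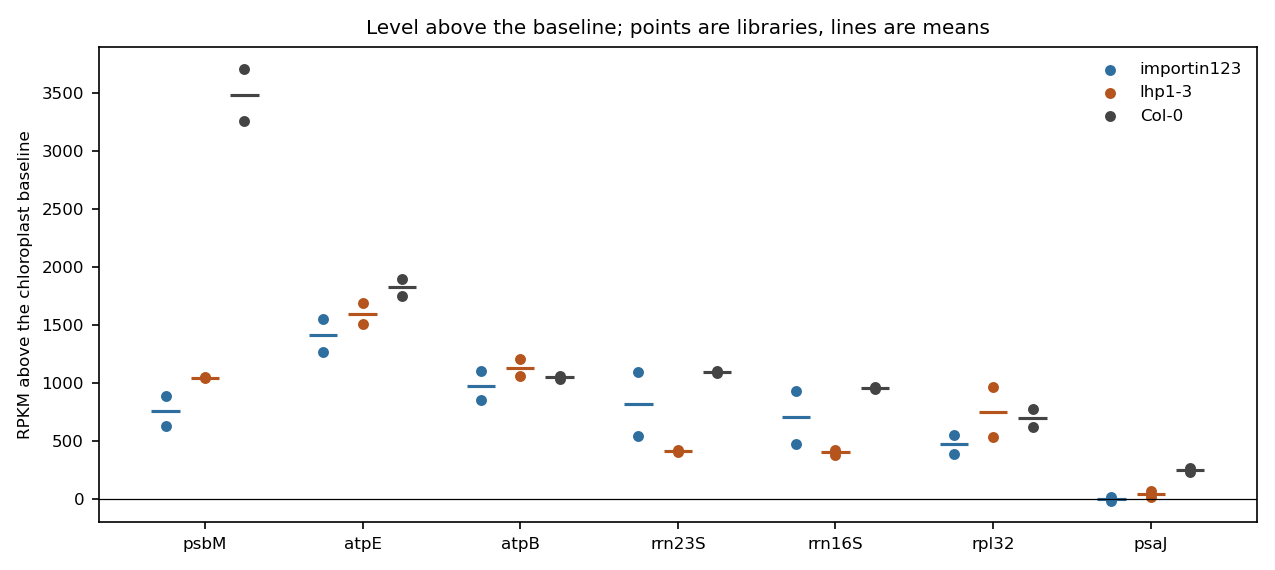
RPKM above the library's chloroplast baseline for 7 features with a lower share in the mutants; points are libraries and short lines the means of 2 libraries, in the order importin123, lhp1-3 and Col-0 for each gene. psbM and psaJ keep a gap between the mutants and Col-0, while atpB lies at about the same height in all genotypes (854 to 1205 RPKM).

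The nuclear genes that drive and process chloroplast RNA were taken as a list of 29. In importin123 24 were lower and 2 higher than in Col-0, and in lhp1-3 20 were lower and 3 higher, beside 33.3% and 33.7% of all features lower (edgeR's quasi-likelihood test, adjusted over all features). The median log2 fold change was -0.995 in importin123 and -0.52 in lhp1-3. The floor bears on these genes: with it subtracted 16 were lower and 3 higher in importin123, and 0 lower and 3 higher in lhp1-3, where 15.2% of all features were lower and 15% higher in importin123, and 5.49% lower and 7.8% higher in lhp1-3. On log2(RPKM + 1) limma called 16 lower and 4 higher in importin123, and 7 lower and 7 higher in lhp1-3, beside 13.9% of all features lower and 58.0% higher in importin123, and 12.4% lower and 53.6% higher in lhp1-3. So for lhp1-3 the direction of the list depended on the scale, and for importin123 more were lower than higher on each of these scales.

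All 6 sigma factors, which direct the plastid-encoded polymerase to promoters, were lower in importin123 on each of these scales and by DESeq2. Levels of these nuclear genes are given in CPM, which are counts scaled to the library total without division by length. SIG1 (SIGA) stood at 25.9 and 32.6 CPM in importin123, 76.1 and 67.3 CPM in lhp1-3, and 74.6 and 72.7 CPM in Col-0. Its log2 fold change was -1.86 ± 0.15 in importin123 against Col-0 (adjusted p = 2.89e-08, edgeR) and -1.37 ± 0.15 in importin123 against lhp1-3 (adjusted p = 7.61e-06). The 6 factors were also called lower in lhp1-3 by edgeR, but 0 were after floor subtraction and 0 by limma on RPKM. The SIG1 values of lhp1-3 overlapped Col-0 in CPM. The 2 phage-type polymerases went the other way. RPOTmp (AT5G15700), shared by plastids and mitochondria, had 20.4 and 15.7 CPM in importin123, 17.8 and 16.4 CPM in lhp1-3, and 6.97 and 6.61 CPM in Col-0. Its log2 fold change was 0.87 ± 0.13 in importin123 (adjusted p = 1.76e-05, edgeR) and 0.88 ± 0.13 in lhp1-3 (adjusted p = 2.08e-05). With the floor subtracted this was 0.63 in importin123 (adjusted p = 0.0392) and 0.56 in lhp1-3, where the call was lost (adjusted p = 0.0885). RPOTp (SCA3), the plastid one, had 28.3 and 30.6 CPM in importin123, 27.0 and 24.7 CPM in lhp1-3, and 14.5 and 15.7 CPM in Col-0. Its log2 fold change was 0.43 ± 0.12 in importin123 (adjusted p = 0.00443, edgeR) and 0.32 ± 0.12 in lhp1-3 (adjusted p = 0.0245). With the floor subtracted this was 0.74 in importin123 and 0.52 in lhp1-3 (adjusted p = 0.00537 and 0.0381, edgeR). DESeq2 called 1 of these polymerases in each mutant.

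The 9 genes for RNA processing and stability were all lower in importin123, and 8 of 9 were lower in lhp1-3 (edgeR); with the floor subtracted these became 7 and 0. HCF152, a pentatricopeptide protein that protects and processes a chloroplast transcript, fell by 1.23 ± 0.13 on the log2 scale in importin123 (adjusted p = 4.52e-07, edgeR), and by 0.74 with the floor subtracted (adjusted p = 0.00267). CRB (CSP41B), an RNA-binding protein of chloroplasts, fell by 1.98 ± 0.22 in importin123 (adjusted p = 7.44e-07, edgeR), and by 1.29 with the floor subtracted (adjusted p = 0.0015). Of the 12 proteins associated with the plastid polymerase, 9 were lower and 0 higher in importin123, and 6 lower and 1 higher in lhp1-3. With the floor subtracted these became 3 lower and 1 higher in importin123, and 0 lower and 2 higher in lhp1-3, and limma called 4 lower and 2 higher in importin123, and 3 lower and 5 higher in lhp1-3. PTAC7 fell by 1.57 ± 0.16 in importin123 (adjusted p = 5.58e-07, edgeR) and by 1.07 ± 0.16 in lhp1-3 (adjusted p = 2.4e-05). With the floor subtracted its log2 fold change was -1.0 in importin123 (adjusted p = 0.00351, edgeR) and -0.51 in lhp1-3, where the call was lost (adjusted p = 0.0685). PDE312 was called higher in lhp1-3, at 0.36 ± 0.12 (adjusted p = 0.0126, edgeR) and at 0.81 with the floor subtracted (adjusted p = 0.00416). PTAC12, singled out after its values were seen, was called higher in lhp1-3 with the floor subtracted (0.67, adjusted p = 0.0144, edgeR) but not without (0.23, adjusted p = 0.1). Between importin123 and lhp1-3, 10 of the 29 were lower and 0 higher, beside 6.05% of all features lower, and 4 of those 10 were sigma factors.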

How the data were processed

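Poly(A)-selected RNA of whole seedlings was sequenced, with 2 libraries for each genotype, assigned from sample titles. In a single table the authors deposited whole-number counts and RPKM values for every feature and library. Per the submitters' processing notes FastQC, HISAT2, SAMtools, bedtools and edgeR were used with the TAIR10 build; for tool versions, strand handling and multi-mapped reads nothing was stated. The counts were tested as deposited, with no rounding. The deposited RPKM are per kb of gene span and scaled to the library total.

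Levels were tested with edgeR 4.0.16 in R 4.3.3 (filterByExpr, TMM, robust quasi-likelihood, 1 coefficient per genotype, two-sided, Benjamini-Hochberg over 33906 features, threshold 0.05; common biological coefficient of variation 0.14). The make-up fit was the same with chloroplast rows scaled to their own sum. SE is the absolute log2 fold change over the square root of F. Scripts were tested on simulated data. Alternatives were DESeq2 1.42.0, limma 3.58.1 on log2(RPKM + 1) with RPKM of at least 0.5, other filters and scales, floor subtraction, a replicate block and each library left out. Features were named by a rule: the 10 largest shares, the 6 largest rises and falls per comparison past the threshold without overlap, leading members of each class, and up to 4 listed nuclear genes per direction; exceptions are marked. The members, lists and baseline were chosen with earlier results of these data known. Replicate numbers did not pair the libraries.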

Additional observations from a re-analysis of the deposited data

Results flagged for a closer look

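Mitochondrial features, which entered no comparison above, also took more of the counts in the mutants: 0.639% and 0.457% in importin123 and 0.463% and 0.467% in lhp1-3, against 0.128% and 0.124% in Col-0. The means were 0.548% in importin123 and 0.465% in lhp1-3, against 0.126% in Col-0, and they stand here because a signal outside the comparisons exceeded the control libraries. The median RPKM of the mitochondrial features was 29.8 and 28.8 times the nuclear floor of the same library in importin123, 26.9 and 28.4 times in lhp1-3, and 25.7 and 24.5 times in Col-0. The cause was not tested.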

How the results depend on the processing

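The number of libraries, more than depth, limits these results. The share of chloroplast counts stayed higher in both mutants than in Col-0 under every alternative run. Subtracting the nuclear floor is no test of this, since the chloroplast baseline stood at 490 to 616 times that floor and lost little. With each library left out the difference was 10.6 to 15.6 points in importin123 and 11.4 to 11.8 points in lhp1-3. Between importin123 and lhp1-3 it ranged from -1.05 (without importin123 replicate 1) to 3.99 points. Counts of features changed in level stayed within 1.5 times. Features changed in make-up numbered 94 in importin123 and 103 in lhp1-3; with TMM over the chloroplast rows 28 and 24, with the sum without rRNA and tRNA rows 28 and 24, and with each library left out 33 to 101 in importin123 and 39 to 111 in lhp1-3. Over 36 results of named features and 570 alternative values, 30 lost their call and 0 changed direction; the cause was not tested.

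Replicate numbers gave correlations of deviations of -0.10 (importin123 and Col-0), -0.01 (lhp1-3 and Col-0) and 0.06 (importin123 and lhp1-3) across all features, and of 0.08, -0.61 and -0.06 over the chloroplast features. With the replicate number as a block, 128 chloroplast features changed in level and 102 in make-up in importin123, and 127 and 108 in lhp1-3. Of all 33906 features tested, 25204 and 25181 passed in these fits in importin123, and 25117 and 25096 in lhp1-3. The importin123 numbers were also crossed, an alternative chosen after seeing the data. Then 82 chloroplast features changed in make-up in importin123 and 88 in lhp1-3, beside 25552 and 25531 of all features.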
